A study of Bos taurus with 27 samples.

Results

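Transcripts of the prostaglandin pathway and of the nuclear receptor PPARG were examined in 27 pools of bovine blastocysts. The genes were chosen by symbol as 10 genes of arachidonate release, prostaglandin synthesis, transport, breakdown and signaling. Of these, 9 were rows of the deposited table of 32637 genes, and *ABCC4* was not analysed here. Each pool held RNA of 2 in vitro produced blastocysts with stage score 7 (expanding or expanded) and quality score 1. All oocytes came from abattoir ovaries, were matured in medium with fluid from preovulatory follicles of either greater or lesser maturity, and were fertilized with semen of a single bull, and the embryos were cultured in KSOM. The study asked whether the maturity of the follicle that supplied the fluid alters the transcriptome of the blastocyst. The labels of single pools give neither treatment nor IVF replicate, so the 27 pools are described as 1 group, no treatments were compared and no relation was recomputed within IVF replicates. Each value is that of 2 embryos together, so a higher value cannot be told apart from 1 embryo with much more transcript, and fewer cells of a type cannot be told apart from less RNA per cell.

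Prostaglandins are lipid signals made from arachidonic acid, which phospholipase A2 enzymes release from membranes. The cyclooxygenases PTGS1 and PTGS2 turn arachidonic acid into prostaglandin H2, and terminal synthases turn that into prostaglandin E2, prostaglandin F2α and others. Prostaglandins leave cells by efflux, are taken up again by the carrier SLCO2A1 and are inactivated by HPGD, and some of their derivatives act as ligands of PPARG. In ruminants the elongating trophectoderm is a known source of prostaglandins, and PTGS2 and PPARG are studied there for their part in conceptus elongation.

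Abundance was expressed as CPM, the reads counted on a gene per 1e6 reads counted on all genes of the pool. Total counts were between 10517606 and 44253564 per pool, so that 3 counts, the smallest level taken as detectable, were equal to between 0.0678 and 0.285 CPM. Intervals and floors cover counting error only, since the reads carried no molecular identifiers. All 9 trophectoderm markers and 5 of the 6 epiblast markers reached 1 CPM in at least 12 pools, whereas *FGF4* had no counts in 17 pools. Of the 5 hypoblast markers, 3 reached that limit, and *SOX17* had no counts in 14 pools. Tests used levels within a gene across pools. Where CPM of different genes are set side by side, this is a description, and differences in level between genes were not tested.

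At the limit of 1 CPM in at least 12 pools, which the study used, 12310 genes were retained. Among them were 7 of the 9 pathway genes, namely *PLA2G4A*, *PTGS1*, *PTGS2*, *PTGES*, *PTGES2*, *PTGES3* and *SLCO2A1*. *PLA2G4A*, *PTGS2*, *PTGES*, *PTGES2* and *PTGES3* were above 1 CPM in all 27 pools. *PTGS1* reached 1 CPM in 13 pools and *SLCO2A1* in 12 pools, the fewest that the limit allows, and with CPM from TMM library sizes 6 of the 9 genes were retained. *HPGD* and *PPARG* each reached it in 5 pools and were not retained, so their slopes were fitted among all genes with any count.

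*PLA2G4A* encodes the cytosolic phospholipase A2 that releases arachidonic acid. The gene occupies 67907024 to 68081280 on chromosome 16 (ARS-UCD2.0, the build of all positions given here). Its abundance was 3.68 CPM in pool 31, the lowest, 27 CPM at the median and 64.8 CPM in pool 22, the highest, a range of 17.6-fold. Pool 9, with 58.3 CPM, was close to pool 22, and the next pool had 40.1 CPM. At the low end, pool 21 had 6.10 CPM and pool 36 had 11.4 CPM. The middle of the pools was narrower, with quartiles of 19.0 and 36.1 CPM. At these counts (113 to 1954 per pool) the extremes were far outside counting error, with an exact 95% Poisson interval of 3.04 to 4.43 CPM in pool 31 and of 62.0 to 67.7 CPM in pool 22.

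*PTGS2*, the inducible cyclooxygenase, was abundant in every pool. It lies on chromosome 16 from 67728006 to 67735629. Its abundance was 557 CPM in pool 32, the lowest, 1014 CPM at the median and 1783 CPM in pool 6, the highest, a range of 3.20-fold. Pools 28 and 5 followed pool 6 with 1754 and 1634 CPM, and pools 15 and 44 stood just above pool 32 with 660 and 670 CPM. With 8614 to 52237 counts per pool, the counting intervals were narrow, and when pools were placed in order of abundance the intervals overlapped in 10 of the 26 neighboring pairs. The spread over all pools was 2050 times what counting error gives (chi-square per degree of freedom), and no pool stood far from its neighbors in that order.

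*PTGS1*, the cyclooxygenase that is constitutive in many tissues, was near the detection limit in some pools and clearly present in others. It lies on chromosome 11 from 93236344 to 93262105. No count was found in pool 28, the median was 0.987 CPM and the highest values were 4.82 CPM in pool 14 and 4.72 CPM in pool 1. Pool 13 followed with 3.19 CPM. In 4 pools there were 3 counts or fewer, and 7 pools were above 2 times the median. The total counts of pools 14 and 31 were similar (29454142 and 30679078), while their *PTGS1* counts were 142 and 1.

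The 3 prostaglandin E synthases had different patterns of spread. *PTGES* encodes the inducible microsomal synthase and lies on chromosome 11 from 100121988 to 100133425. Its abundance was 1.28 CPM in pool 21, the lowest, 3.19 CPM at the median and 7.79 CPM in pool 31, the highest. Pool 42 was second with 5.36 CPM, so the upper end rested on 1 pool. Counts were between 30 and 239 per pool, and in order of abundance the counting intervals of 25 of 26 neighboring pairs overlapped.

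*PTGES2*, a membrane-associated synthase, lies on chromosome 11 from 98758686 to 98764051. Its abundance was 4.41 CPM in pool 33, the lowest, 9.95 CPM at the median and 21.5 CPM in pool 32, the highest. Pools 44 and 15 were next with 15.3 and 15.2 CPM. These were also the 3 pools with the lowest *PTGS2*, although over all 27 pools the correlation of *PTGS2* and *PTGES2* was not significant (Spearman rho -0.02, permutation p = 0.922, and Pearson r -0.14, permutation p = 0.476).

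*PTGES3*, which also serves as the cochaperone p23 of HSP90, lies on chromosome 5 from 56760813 to 56782195. It was the steadiest of the genes, with 615 CPM in pool 31, 789 CPM at the median and 900 CPM in pool 24, a range of 1.46-fold. Pools 31 and 41 (617 CPM) stood below the rest, of which pool 12, with 695 CPM, was the lowest.

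*SLCO2A1*, the prostaglandin uptake carrier, lies on chromosome 1 from 135336890 to 135423994. Its median was 0.763 CPM, with no counts in pools 33 and 45, and it was concentrated in a few pools. Pool 31 had 6.75 CPM and pool 9 had 4.34 CPM, whereas the third highest, pool 32, had 1.88 CPM. Pool 31 alone held 21.5% of the CPM summed over pools, and the mean of 1.16 CPM was 0.945 CPM without it.

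*HPGD*, the dehydrogenase that inactivates prostaglandins, lies on chromosome 8 from 6787672 to 6824508. It had no counts in 7 pools and 3 counts or fewer in 15 pools, with a median of 0.115 CPM. Its highest values were 1.92 CPM in pool 12, 1.36 CPM in pool 14 and 1.33 CPM in pool 22. Its log2 abundance and the log2 total count had a Pearson r of 0.47 (permutation p = 0.0137) and a Spearman rho of 0.37 (permutation p = 0.0596) over the 27 pools, with r of 0.40 without pools 28 and 23. The edgeR slope among all genes with any count was 0.94 ± 0.42 (SE) per SD of log2 total count, with an adjusted p of 0.438, and the part of depth in the *HPGD* counts was not tested further.

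*PPARG*, the nuclear receptor, lies on chromosome 22 from 56710574 to 56775806. It was low in all pools, with no counts in pool 32, a median of 0.436 CPM and a highest value of 1.36 CPM in pool 41. Pools 24, 22, 36 and 42 were the others above 1 CPM, with 1.25, 1.23, 1.10 and 1.05 CPM. Counts were at most 46 in a pool and 375 in all pools together. In order of abundance the counting intervals of all 26 neighboring pairs overlapped, but the spread over all pools was 6.42 times what counting error gives (chi-square per degree of freedom).

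**Figure D1:**
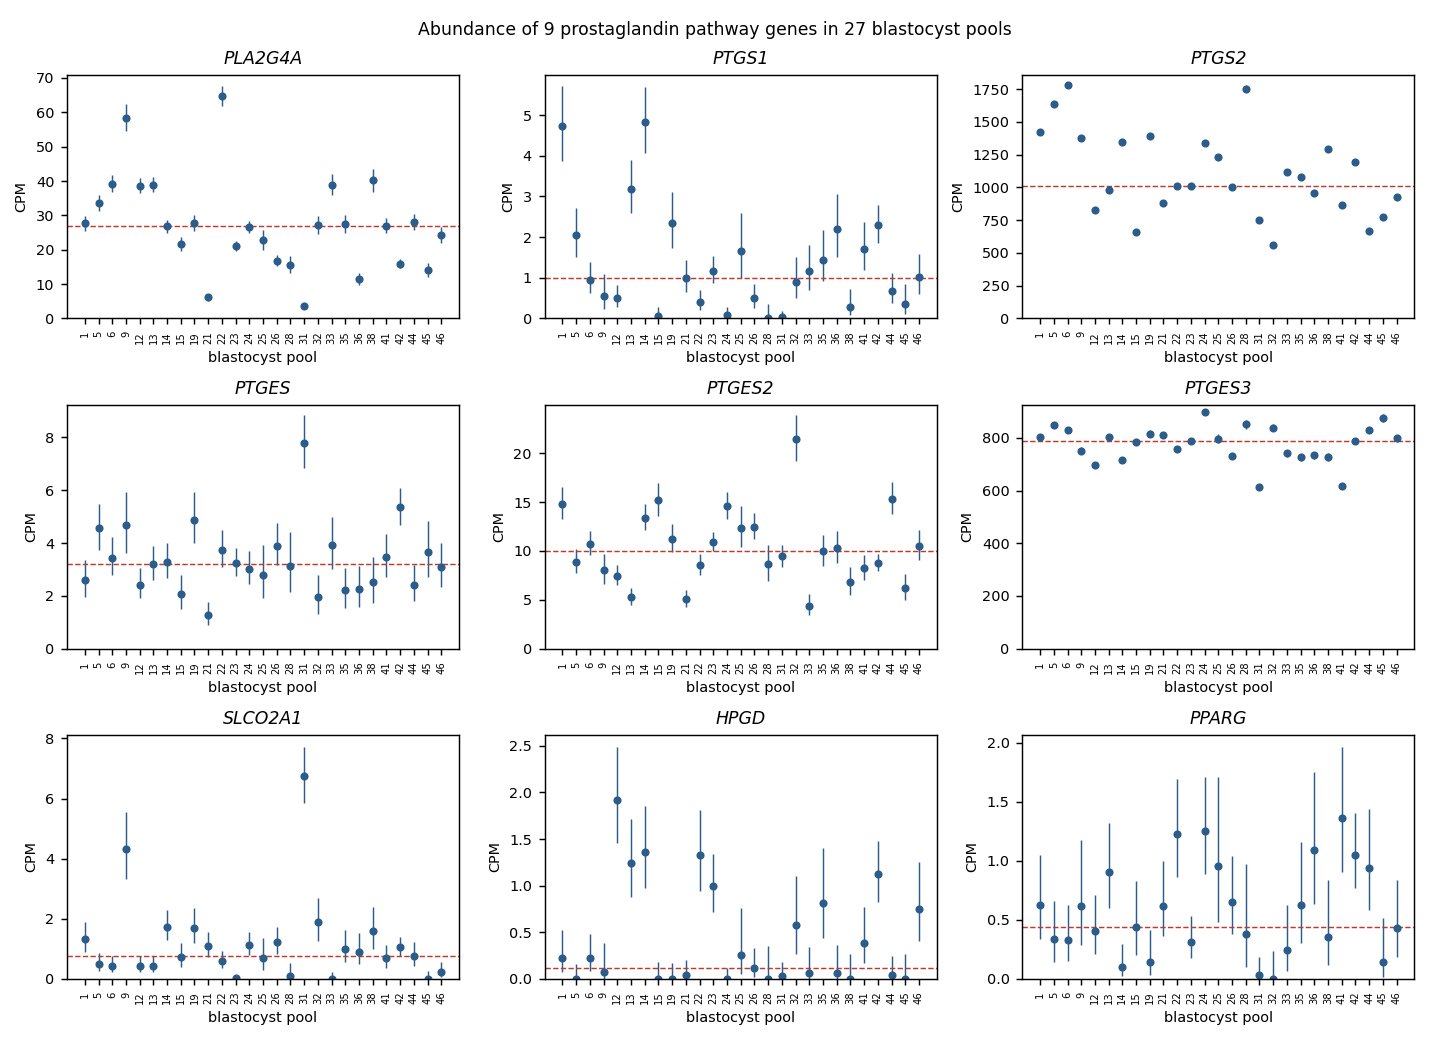
Abundance in CPM (vertical axes, from 0) of 9 prostaglandin pathway genes in each of 27 blastocyst pools (horizontal axes, by pool number). Points are pools, bars are exact 95% Poisson intervals of the counts and the dashed line is the median. Pool 31 was highest in *PTGES* and *SLCO2A1* and lowest in *PLA2G4A* and *PTGES3*.

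The spread among pools was set beside that of other genes of like abundance, using the biological coefficient of variation of edgeR (the variation left after counting error) and its trend over abundance. This is a description of 12310 retained genes. *PTGS2* had a coefficient of 28.5%, against a trend of 21.3% at its abundance, and its ratio to the trend was at percentile 90.9 of retained genes. *PLA2G4A* had 49.9% against 31.2%, at percentile 95.8. *SLCO2A1* (103% against 76.8%) and *PTGS1* (96.4% against 76.4%) were at percentiles 91.0 and 88.2. On the other side, *PTGES3* had 12.4% against 21.5%, at percentile 1.88, and *PTGES* had 42.2% against 63.1%, at percentile 12.0. *PTGES2* was near the middle, with 37.3% against 42.5%, at percentile 55.1. Thus *PLA2G4A*, *SLCO2A1*, *PTGS2* and *PTGS1* were more variable among pools than most genes of their abundance, and *PTGES3* and *PTGES* were less variable.

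**Figure D2:**
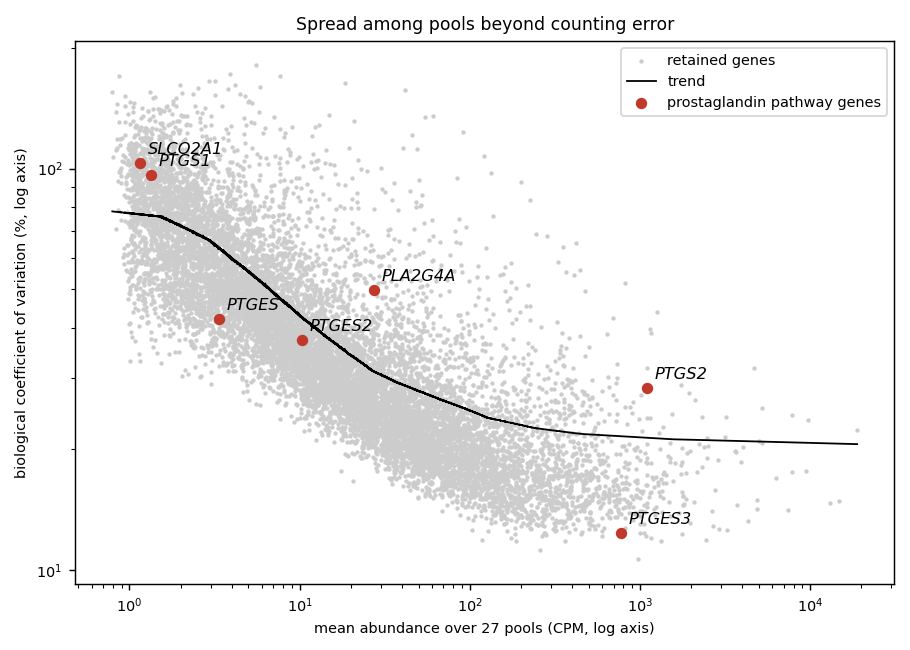
Biological coefficient of variation in percent (log axis) against mean CPM over 27 pools (log axis). Gray points are the 12310 retained genes, the line is the edgeR trend and the red points are the 7 retained pathway genes. *PLA2G4A*, *SLCO2A1*, *PTGS2* and *PTGS1* lie above the trend and *PTGES3*, *PTGES* and *PTGES2* lie below it.

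Whether the pathway genes followed interferon tau, lineage markers or the depth of the library was examined with 5 measures of each pool. These were the summed abundance of the interferon tau genes *IFNT2* and *IFNT3*, the mean standardized abundance of the trophectoderm, epiblast and hypoblast markers, and the total count. Interferon tau, the trophoblast signal by which ruminant embryos are recognized, was between 7.09 CPM in pool 36 and 589 CPM in pool 9, and because its genes are near-identical copies the division of reads among them is uncertain. Slopes were fitted in counts of all retained genes with edgeR's quasi-likelihood test and adjusted over all of them by the Benjamini-Hochberg method, and they are log2 changes per SD of the measure. Of the 35 slopes (7 genes by 5 measures), 0 passed an adjusted p of 0.05 in edgeR, where 5 had an unadjusted p of 0.05 or less. DESeq2 called 0 as well, with 7 at an unadjusted p of 0.05 or less, and Spearman correlation with permutation p called 1, with 4 unadjusted. Among all retained genes edgeR called 2.27% with interferon tau, 6.35% with trophectoderm markers, 0.0163% with epiblast markers, 0% with hypoblast markers and 0% with the total count. At an unadjusted p of 0.05 or less these shares were 16.3%, 23.5%, 11.2%, 12.6% and 2.76%, beside 1, 1, 2, 1 and 0 of the 7 pathway genes. Pool 9 was the pool farthest from the median of interferon tau, where it was highest, and of all 3 marker measures, where it was lowest. Its scores were -1.63 for trophectoderm, -1.32 for epiblast and -1.80 for hypoblast markers, and whether these reflect cell make-up was not tested. Without pool 9 the number of pathway genes called by edgeR was 0 for each of these 4 measures.

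The 1 relation called by a single method was that of *PTGES* with interferon tau. The 4 pools with the most interferon tau, pools 9, 14, 19 and 42, had 4.68, 3.29, 4.89 and 5.36 CPM of *PTGES*, and pool 36, with the least, had 2.25 CPM. Spearman's rho was 0.63 (permutation p = 0.00046, adjusted p = 0.0423 over 12309 genes, n = 27), where this method called 1.5% of genes (4.71% with trophectoderm markers, where it called 0 of the 7). Pearson's r of log2 values was 0.52 (permutation p = 0.00613, adjusted p = 0.112), and it was 0.51 without pools 9 and 14. The edgeR slope was 0.26 ± 0.11 (SE) with an adjusted p of 0.251. Without pool 9, rho was 0.60 with an adjusted p of 0.101, and without pool 31, the pool highest in *PTGES*, rho was 0.66 with an adjusted p of 0.0300. The direction was the same each time, but the call was not kept in edgeR, in Pearson correlation or without pool 9.

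The other slopes with an unadjusted edgeR p of 0.05 or less were not significant after adjustment. *PTGES* had a slope of -0.30 ± 0.11 on epiblast markers (adjusted p = 0.259), and *PTGES2* had a slope of 0.22 ± 0.09 on the same markers (adjusted p = 0.369). *PLA2G4A* had slopes of -0.31 ± 0.12 on trophectoderm markers (adjusted p = 0.120) and of -0.30 ± 0.13 on hypoblast markers (adjusted p = 0.328). The edgeR slopes of *PTGS2* did not reach an unadjusted p of 0.05 on any measure. They were 0.13 ± 0.07 on interferon tau (adjusted p = 0.411), 0.13 ± 0.07 on trophectoderm markers (adjusted p = 0.276) and -0.15 ± 0.08 on epiblast markers (adjusted p = 0.461). By Spearman correlation with interferon tau, *PTGS2* had a rho of 0.40 (permutation p = 0.0405, adjusted p = 0.291). *PTGS1* had a rho of 0.45 with it (permutation p = 0.0189, adjusted p = 0.212). *PTGES* had a rho of -0.45 with epiblast markers (permutation p = 0.0198, adjusted p = 0.448). For *PTGS1* and *SLCO2A1* the errors of the slopes were wide, between 0.23 and 0.36 on every measure, so slopes of that size could not be detected in these pools. For *PTGES3* the slopes were between -0.04 and 0.02 with errors of 0.03. *PPARG*, fitted among all genes with any count, had slopes between -0.36 and 0.16 with errors of 0.27 to 0.33.

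**Figure D3:**
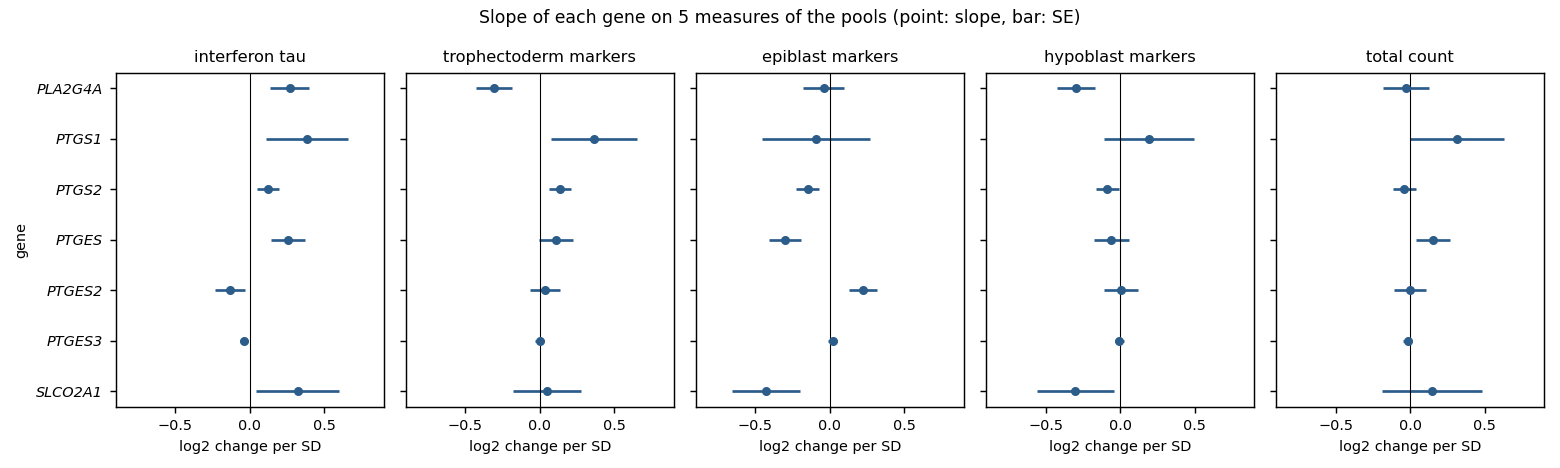
Slope of each of the 7 retained genes on 5 measures of the pools, as log2 change per SD of the measure (horizontal axes). Points are edgeR slopes and bars are standard errors. *PTGES3* has slopes between -0.04 and 0.02 with narrow errors, and *PTGS1* and *SLCO2A1* have the widest errors.

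*PTGS2* is also strongly induced in cumulus cells around ovulation, so markers of cumulus and granulosa cells were measured in the same pools. Of 11 such markers, 6 were retained, and the summed abundance of all 11 was between 24.4 and 83.2 CPM. *LHCGR* had no counts in 18 pools, *AMH* was at most 0.752 CPM and *PTX3* was at most 1.40 CPM. *HAS2*, *VCAN* and *INHBA* were at most 2.16, 3.19 and 3.74 CPM. In contrast, *CYP11A1* (4.28 to 39.7 CPM) and *STAR* (7.27 to 19.1 CPM) were above 1 CPM in all 27 pools. *FSHR*, *CYP19A1* and *TNFAIP6* reached 24.6, 8.19 and 7.93 CPM. The correlation of *PTGS2* with the 6 retained markers had rho between -0.05 and 0.33, and 0 of 6 were called. The study removed cumulus cells after fertilization, with hyaluronidase and vortexing, before the embryos were cultured. The part of such cells in the *PTGS2* abundance was not tested.

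The pathway genes did not vary together in a way that passed the test. Of the 21 pairs among the 7 retained genes, 0 were correlated at an adjusted p of 0.05 by Spearman permutation tests adjusted over all other retained genes, and 0 had an unadjusted p of 0.05 or less. Values of rho were between -0.26 (*PTGES* with *PTGES2*) and 0.38 (*PTGES2* with *SLCO2A1*), with a median of 0.045, and 12 of 21 were positive. By Pearson correlation 0 pairs were called, and the smallest unadjusted permutation p was 0.0363, for *PTGES3* with *SLCO2A1* (r -0.41, and -0.22 without the 2 pools farthest from the median of *PTGES3*). As background, the share of retained genes called with each gene was 1.68% for *PLA2G4A*, 0.122% for *PTGES* and 0% for *PTGS1*, *PTGS2*, *PTGES2*, *PTGES3* and *SLCO2A1*. A share of 0% does not mean that no gene was correlated, since a gene alone at the smallest permutation p of 1e-05 is not called. At an unadjusted p of 0.05 or less, that share was 17.8% for *PLA2G4A*, 13.1% for *PTGES*, 7.31% for *PTGS2*, 6.26% for *PTGS1*, 11.5% for *PTGES2*, 6.84% for *PTGES3*, 5.65% for *SLCO2A1* and, among the genes not retained, 10.2% for *HPGD* and 4% for *PPARG*.

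*PLA2G4A* and *PTGS2* act one after the other in the pathway and are close neighbors on chromosome 16. They are 171.4 kb apart, with 1 annotated locus in that stretch. Their abundances had a rho of 0.32 (permutation p = 0.104, larger adjusted p = 0.752) and an r of 0.30 (permutation p = 0.134, larger adjusted p = 0.749), with r of 0.31 without the 2 pools farthest from the median of *PTGS2*. Pool 22, highest in *PLA2G4A*, had 1009 CPM of *PTGS2*, near its median, and pool 28, second in *PTGS2*, had 15.5 CPM of *PLA2G4A*. The cyclooxygenases *PTGS1* and *PTGS2* had a rho of 0.28 (permutation p = 0.159, larger adjusted p = 0.869) and an r of 0.27 (permutation p = 0.173, larger adjusted p = 0.811). *PTGS2* and *PTGES*, which are often induced together, had a rho of 0.35 (permutation p = 0.0705, larger adjusted p = 0.710) and an r of 0.28 (permutation p = 0.153, larger adjusted p = 0.765). None of these p-values shows that the genes varied independently.

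**Figure D4:**
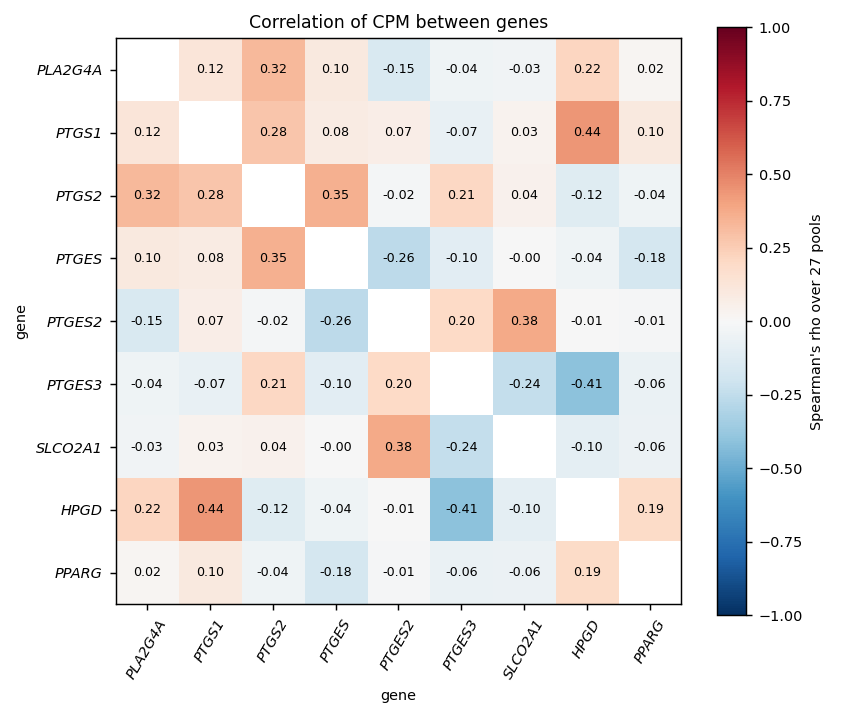
Spearman's rho of CPM over 27 pools for each pair of the 9 genes, with the value printed in each cell and colored from -1 (blue) to 1 (red). Among the 7 retained genes rho was between -0.26 and 0.38, and the 2 largest values by size, 0.44 and -0.41, involve *HPGD*, which had 3 counts or fewer in 15 pools.

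Single pools combined high and low values of different genes. Pool 31 was highest in *PTGES* and *SLCO2A1*, lowest in *PLA2G4A* and *PTGES3*, and had 1 count of *PTGS1*. Its epiblast marker *POU5F1* was also the lowest of all pools, at 109 CPM, and its keratins *KRT8* and *KRT18* were the highest. Pool 32 was highest in *PTGES2* and lowest in *PTGS2*, and it was the pool highest in *POU5F1*, at 753 CPM. Pool 19 was above the median in all 7 retained genes, and 2 pools were above it in only 1. The part of lineage composition in these combinations was not tested beyond the slopes above.

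The genes whose pattern over the 27 pools was most like that of *PLA2G4A* were *CHMP1B*, *LAMP2* and *AK4*. CHMP1B belongs to the ESCRT machinery of membrane remodeling, LAMP2 is a lysosomal membrane protein and AK4 is a mitochondrial adenylate kinase. *CHMP1B* was between 53.0 CPM in pool 31 and 137 CPM in pool 13, and it had a rho of 0.86 with *PLA2G4A* (permutation p = 1e-05, adjusted p = 0.0137) and an r of 0.86 (permutation p = 1e-05, adjusted p = 0.00535), with r of 0.77 without the 2 pools farthest from the median. *LAMP2* had a rho of 0.82 (permutation p = 1e-05, adjusted p = 0.0137) and *AK4* a rho of 0.80 (permutation p = 3e-05, adjusted p = 0.0161), and their r were 0.77 and 0.85 (permutation p of 1e-05 and 2e-05, adjusted p of 0.00535 and 0.00684). The value of 1e-05 is the smallest that these permutations can give. All 3 genes were lowest in pool 31, and without that pool rho was 0.85, 0.80 and 0.78, each with an adjusted p of 0.0308. In all, 207 genes were correlated with *PLA2G4A*, 152 positively and 55 negatively. The number changed with the pools used. It was 10 without pool 31, 18 without the 2 pools of lowest total count (28 and 25) and 175 without pool 9.

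*PTGES* was correlated with 15 genes, 10 positively (0.0812% of those tested) and 5 negatively (0.0406%), and among those most like it were *FTL* and *STAP2*. FTL is the ferritin light chain and STAP2 is a signaling adaptor. *FTL* was between 915 CPM in pool 1 and 2320 CPM in pool 9, and *STAP2* was between 16.4 CPM in pool 32 and 78.7 CPM in pool 31. *FTL* and *STAP2* had a rho of 0.78 and 0.77 (permutation p of 2e-05 and 1e-05, adjusted p = 0.0410 for both) and an r of 0.72 and 0.75 (permutation p of 2e-05 and 1e-05, adjusted p = 0.0264 for both), with r of 0.68 for both without the 2 pools farthest from the median. Without pool 9 their rho was 0.75 and 0.76 but their adjusted p was 0.0769 and 0.0528, and 0 genes were called with *PTGES*, whereas 20 were called without pool 31.

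**Figure D5:**
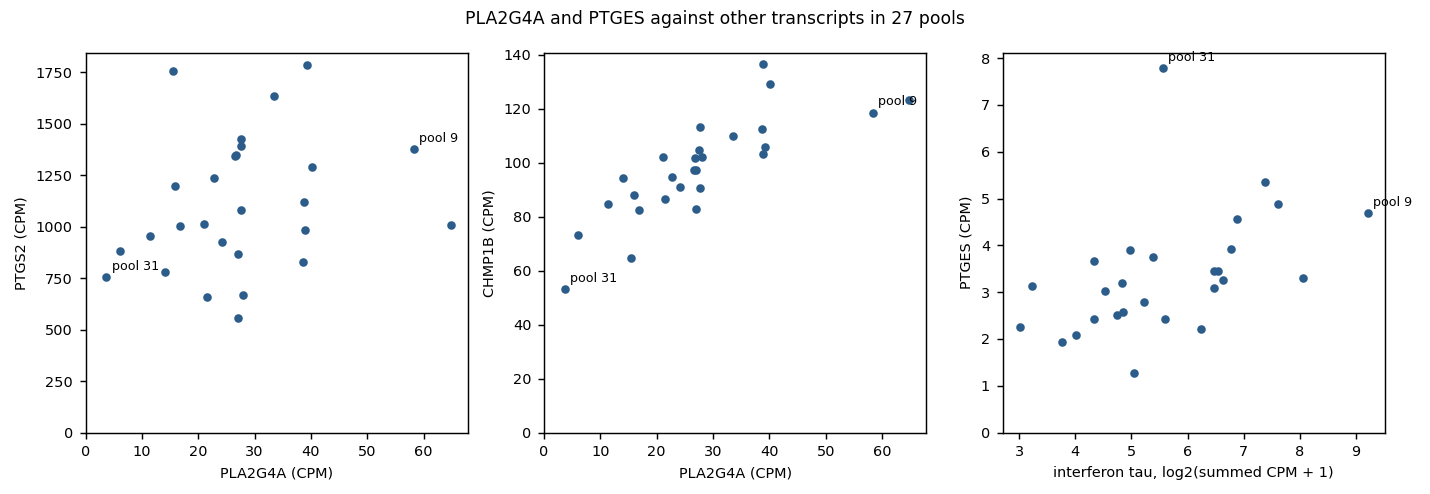
*PTGS2* against *PLA2G4A* (left, CPM), *CHMP1B* against *PLA2G4A* (middle, CPM) and *PTGES* in CPM against log2(summed CPM + 1) of interferon tau (right). Points are the 27 pools, with pools 9 and 31 named. Spearman's rho is 0.32, 0.86 and 0.63 from left to right.

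For the other genes no correlation passed the adjusted test. The smallest permutation p is 1e-05, and over 12309 genes a gene alone at that value has an adjusted p of 0.123. The test could therefore not call a strong correlation unless other genes had p-values near the smallest. *ATP5F1D* with *PTGES2* and *ACKR2* with *PTGES3* were both at a permutation p of 1e-05. The genes most like *PTGS2* were *SLC13A2*, *PAG2* and *AGK*, with rho of 0.74, 0.71 and 0.69 (adjusted p of 0.246, 0.246 and 0.271, n = 27, permutation test). SLC13A2 is a dicarboxylate transporter, PAG2 is a pregnancy-associated glycoprotein of the trophoblast and AGK is a mitochondrial lipid kinase. Their r were 0.72, 0.71 and 0.66 (adjusted p of 0.123, 0.123 and 0.180, permutation test), and 0.69, 0.72 and 0.68 without the 2 pools farthest from the median. *PAG2* was between 30.1 CPM in pool 15 and 426 CPM in pool 9, and because it has near-identical paralogs its counts are uncertain. Those most like *PTGES2* were *ATP5F1D*, *VPS51* and *LMNTD2* (rho 0.79, 0.73 and 0.72, adjusted p = 0.123 for each in the permutation test), and those most like *PTGES3* were *ACKR2*, *LOC132343680* and *ACTN3* (rho 0.79, 0.70 and 0.69, adjusted p of 0.123, 0.269 and 0.269 in the permutation test). ATP5F1D is a subunit of ATP synthase. *RAB39B*, *LOC789029* and *TRNP1* were most like *PTGS1* (rho 0.68, 0.67 and 0.67), and *VRK3*, *R3HCC1* and *ECE2* most like *SLCO2A1* (rho 0.69, 0.66 and 0.66), with adjusted p of 0.602 for the first 3 and 0.779 for the second 3 in the permutation test. For *HPGD* they were *PCP4L1*, *LOC112445832* and *PPP1R15A* (rho 0.75, 0.75 and 0.71, adjusted p of 0.123, 0.123 and 0.185 in the permutation test). For *PPARG*, *NDUFC2*, *CEBPZOS* and *LOC786173* each had a rho of 0.60 with an adjusted p of 0.999 in the permutation test.

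Other genes of the pathway were taken from a list of 77 gene symbols, of which 74 were in the table and 47 were retained. In the supply of arachidonic acid, 12 of 20 listed genes were retained. *PLA2G15*, a lysosomal phospholipase, was between 220 and 536 CPM, *FADS1*, a desaturase in arachidonate synthesis, was between 164 and 547 CPM, and *ACSL4*, which activates arachidonic acid, was between 70.5 and 311 CPM. The secreted enzymes *PLA2G1B*, *PLA2G3* and *PLA2G5* had no counts in 26, 15 and 19 pools.

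Among the other terminal synthases, the enzymes that can form prostaglandin F2α were present in every pool. *AKR1B1*, an aldose reductase with prostaglandin F synthase activity, was 166 CPM in pool 32, 409 CPM at the median and 922 CPM in pool 5. *PRXL2B*, another prostaglandin F synthase, was between 88.0 and 213 CPM, and the carbonyl reductase *CBR1* was between 3.16 and 16.2 CPM. *PTGIS*, the prostacyclin synthase, had a median of 2.94 CPM and ranged from 0.257 to 7.00 CPM. The prostaglandin D synthases *PTGDS* and *HPGDS* were at most 0.0973 and 0.824 CPM, and the thromboxane synthase *TBXAS1* was at most 0.389 CPM.

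In contrast to *HPGD*, the reductases that act after it were retained. *PTGR1* was between 109 and 629 CPM, *PTGR2* between 46.2 and 125 CPM and *PTGR3* between 1.64 and 10.4 CPM. Of the 9 prostanoid receptors, 1 was retained, the prostaglandin F receptor *PTGFR*, between 1.10 CPM in pool 21 and 9.29 CPM in pool 9. The prostacyclin receptor *PTGIR* reached 1 CPM in 11 pools, 1 fewer than the limit. Among the receptors of prostaglandin E2, *PTGER4* was at most 1.93 CPM and *PTGER1* at most 1.92 CPM, *PTGER2* had no counts in 26 pools and *PTGER3* had none in 22 pools.

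Of the other PPAR receptors, *PPARD* reached 1 CPM in 25 pools, with a median of 1.95 CPM, and *PPARA* in 5 pools, with a median of 0.163 CPM. The heterodimer partners *RXRA* and *RXRB* were retained, with medians of 1.52 and 5.73 CPM, and *RXRG* had no counts in any pool. Among known PPAR target genes, *FABP3*, *FABP5* and *PLIN2* had medians of 878, 409 and 205 CPM, whereas *FABP4*, a target typical of fat cells, had no counts in 17 pools.

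The 47 retained genes of the list were tested on the same measures of the pools with edgeR. With interferon tau, 1 of 47 was called and it was higher, beside 1.53% of all genes called higher. With trophectoderm markers 4 were higher and 1 lower, beside 3.78% higher and 2.57% lower among all genes. With epiblast markers, hypoblast markers and total count 0 of 47 were called. Unadjusted p reached 0.05 for 3, 7 and 2 genes, beside 11.2%, 12.6% and 2.76% of all genes. The median slope of the 47 genes was -0.01 on interferon tau and 0.05 on trophectoderm markers, where the medians over all genes were -0.0044 and 0.0057. The gene that rose with interferon tau was *FABP5*, a fatty acid binding protein, which was between 80.3 CPM in pool 32 and 1634 CPM in pool 9. Its slope was 0.66 ± 0.10 (SE, adjusted p = 0.00014), a 1.58-fold change per SD, and it was 0.52 without pool 9 (adjusted p = 0.0158). Its rho was 0.77 (permutation p = 2e-05, adjusted p = 0.0130) and its r 0.78 (permutation p = 1e-05, adjusted p = 0.00648), with r of 0.71 without pools 9 and 14. *FABP5* was also the 1 gene of the list correlated with *PTGES* (rho 0.71, permutation p = 5e-05, adjusted p = 0.0473), with an adjusted p of 0.0711 by Pearson correlation (r 0.61, permutation p = 0.00093) and of 0.106 without pool 9 (rho 0.69).

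With trophectoderm markers, *NCOA1* (a coactivator of nuclear receptors, slope 0.48 ± 0.08, adjusted p = 0.00210), *PLA2G15* (0.26 ± 0.05, adjusted p = 0.00354), *ABCC1* (an efflux pump, 0.50 ± 0.13, adjusted p = 0.0232) and *NCOR1* (a corepressor, 0.20 ± 0.05, adjusted p = 0.0261) rose. *PLIN2*, which coats lipid droplets, fell by 0.26 ± 0.06 (adjusted p = 0.0151). Without pool 9, which was the lowest of all pools in trophectoderm markers, the slope was 0.30 for *NCOA1* (adjusted p = 0.00492), 0.23 for *PLA2G15* (adjusted p = 0.0125) and -0.27 for *PLIN2* (adjusted p = 0.0189). The calls of *ABCC1* (slope 0.38, adjusted p = 0.0897) and *NCOR1* (slope 0.12, adjusted p = 0.160) were lost without it, with the same direction. By Spearman correlation over all 27 pools *PLA2G15* (rho 0.73, adjusted p = 0.00724 in the permutation test) and *NCOA1* (rho 0.68, adjusted p = 0.0147) were called, but *ABCC1* (rho 0.54, adjusted p = 0.0647), *PLIN2* (rho -0.48, adjusted p = 0.115) and *NCOR1* (rho 0.47, adjusted p = 0.126) were not. All 4 genes that rose were lowest of all pools in pool 9, with 9.29 CPM of *NCOA1*, 220 of *PLA2G15*, 47.7 of *NCOR1* and 3.72 of *ABCC1*.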

How the data were processed

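RNA of each pool was made into 3’ end libraries (SMART-Seq v4 3’ DE). Per the submitters' processing notes and the methods of the study, after fastp trimming and STAR alignment of the forward reads to the ARS-UCD2.0 assembly, the authors deposited raw counts per gene from featureCounts, without normalization. Tool versions and the annotation release are not given in the sources used here. All 27 columns were matched to pools by number.

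CPM was the count per 1e6 of a pool's summed counts. The study's own limit, 1 CPM or more in 12 or more pools, decided which genes were retained. Slopes were fitted with edgeR 4.0.16 (quasi-likelihood, TMM) in R 4.3.3, with DESeq2 1.42.0 as an alternative, without covariates, because GEO's labels give no treatment or IVF replicate for single pools and pools were not matched to either by order or by total count. Correlations (Spearman of CPM and Pearson of log2(CPM + 1)) were tested with 100000 two-sided permutations of the pools. Adjusted p-values are by Benjamini-Hochberg over all genes tested, with a threshold of 0.05. The correlations of *HPGD* with the total count were not adjusted over genes. Genes of a measure were left out of its own test. The p-values measure the spread between pools and treat the pools as independent. The study drew on fewer IVF replicates than there are pools, so some pools share a replicate as well as a treatment. Shifts between replicates or treatments were not removed from any slope or correlation, and their part was not tested. Marker scores are means of standardized log2(CPM + 1). Gene positions are from RefSeq on ARS-UCD2.0. All 9 genes are named, with the 3 retained genes of highest rho for each (1 of those for *PTGES* is not reported here) and the called genes of the pathway list. *POU5F1*, *KRT8* and *KRT18* in pools 31 and 32 were named after their values were seen. The genes and lists were chosen with earlier results of these data known. The calculations were tested on simulated data. Python 3.11.15, numpy 2.4.6, pandas 2.3.3 and scipy 1.17.1 were used.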

Additional observations from a re-analysis of the deposited data

How the results depend on the processing

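Of the 9 genes in the table, 7 were retained, and 8 at 0.5 CPM in 12 pools, 5 at 2 CPM, 5 at 1 CPM in all 27 pools, 6 with TMM and 9 with any count. No pathway gene was called on any measure with RLE size factors, DESeq2, no filter or without the farthest pool. With Spearman correlation 1 was called with interferon tau (*PTGES*), and also 1 without pool 31, but 0 without pool 9. The pair count was 0 under each alternative.

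The number of all genes called moved more. With interferon tau it was 280, and 520 with DESeq2, 910 with no filter, 38 without pool 9 and 185 by Spearman correlation. With trophectoderm markers it was 781, and 1284 with no filter and 432 without pool 9. With epiblast markers it was 2, and 89 with DESeq2, 463 with no filter, 0 without pool 9 and 0 by Spearman correlation. With hypoblast markers it was 0, and 108 with DESeq2 and 332 with no filter. With the total count it was 0, and 561 with no filter. Genes correlated with *PLA2G4A* numbered 207, and 518 and 574 by Pearson correlation with pseudocounts of 1 and 0.1, 36 over all genes with any count, 18 without the 2 pools of lowest total count (28 and 25) and 10 without pool 31. Those with *PTGES* numbered 15, and 37 with TMM, 57 and 43 by Pearson correlation with pseudocounts of 1 and 0.1, 0 over all genes with any count and 0 without pool 9. For *PTGS2* 3 were called without the 2 pools of lowest total count, and with TMM 43 were called for *PTGES2* and 3 for *PTGES3*, against 0 for each otherwise. Adjusting over all genes with any count raises the number of tests, and the cause of the other changes was not tested.

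Leaving out pool 9 or pool 31 by Spearman correlation was chosen after seeing the data. No paired analysis was possible because the labels of single pools carry no treatment or replicate number. Low counts limit what can be seen for *PPARG*, *HPGD*, *PTGS1* and *SLCO2A1*, at 375, 334, 887 and 739 counts over all pools.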
